A study of Homo sapiens with 9 samples.

Results

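The mRNAs of 45 genes for ribosome biogenesis and RNA polymerase I transcription were followed after siRNA silencing of KDM4C, a histone lysine demethylase. The cells were labelled Huh7, the name of a human hepatocellular carcinoma cell line. The genes were taken by symbol from a set list. Their measured values were not a criterion, but the list was chosen with earlier results of these data known. All 45 genes were found among the 32906 genes listed per library. They fall into 9 roles, from the small nucleolar ribonucleoproteins (snoRNPs) to the RNA polymerase I machinery. The cells received Scramble control, Si-KDM4C#1 or Si-KDM4C#2 by transfection, RNA was taken after 48 hours, and 3 libraries per group were sequenced (9 in all). All groups therefore share the transfection, and the Scramble libraries are the control for both siRNAs. No animal, clone or stable line was involved in these libraries. The labels number the libraries of a group but do not say that they came from separate cultures, and the study's methods say only in general that experiments were repeated independently, so the p-values measure only the spread between these libraries, which may be technical.

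Ribosomes are built in the nucleolus. RNA polymerase I transcribes a long precursor of the ribosomal RNAs, snoRNPs guide the chemical modification of its nucleotides, and the small-subunit processome and the pre-60S assembly factors fold and cut it into the precursors of both subunits, which are then exported to the cytoplasm. The genes of this programme are needed in quantity by growing cells, and many of them are known targets of MYC, whose dimer with MAX binds the E-box CACGTG.

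KDM4C itself was at 4.88, 4.63 and 4.57 FPKM (fragments per kilobase of exon, scaled to library size) in the Scramble libraries, at 1.18, 1.10 and 1.13 FPKM with Si-KDM4C#1 and at 0.256, 0.349 and 0.256 FPKM with Si-KDM4C#2. It was thus lower in every knockdown library than in any Scramble library, and lower with Si-KDM4C#2 than with Si-KDM4C#1 (log2 difference -0.73, adjusted p = 2.4e-05). At such low levels the pseudocount of 1 understates this difference, which was -2.13 in limma voom on recovered fragments. Of 12 hepatocyte markers, 8 were listed, and none of these exceeded 0.128 FPKM in any library. The listed markers of the labelled cell type were thus close to 0 in all groups. Their summed level was 0.184 to 0.236 FPKM in the Scramble libraries, and 0.0347 to 0.149 and 0.117 to 0.232 FPKM in those of Si-KDM4C#1 and Si-KDM4C#2. These markers do not bear out the label, and the identity of the cells was not tested here. The depth behind the values was 14597503 to 18058557 fragments per library, at which 3 fragments of a gene with 1 kb of exons equal 0.166 to 0.206 FPKM, a limit that covers counting error only.

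Most of the genes were higher after silencing, with either siRNA. Of the 45 genes, 44 averaged 1 FPKM or more in 1 or more groups and were tested on the log2(FPKM + 1) scale together with all 14363 genes that passed this filter. With Si-KDM4C#1, 28 of the 44 were higher than with Scramble at an FDR under 0.05 (63.6%, beside 31.7% of all genes tested), 11 were lower (25%, beside 33.9% of all genes) and 5 did not pass. With Si-KDM4C#2, 32 were higher (72.7%, beside 34.4% of all genes), 2 were lower (4.55%, beside 25.0%) and 10 did not pass. The median change was 0.36 on the log2 scale for Si-KDM4C#1 and 0.32 for Si-KDM4C#2, whereas the medians over all genes tested were -0.03 and 0.06.

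The changes were small for most of the genes. With Si-KDM4C#1, RRP9, NIP7, NOP16 and BOP1 were higher by more than 2-fold (4.04% of all genes were) and NPM1, NCL and RRN3 were lower by more than 2-fold (4.83% of all genes were). With Si-KDM4C#2, NOLC1 and UBTF were higher by more than 2-fold (2.60% of all genes were), and 0 genes of the 44 were lower by that much (2.30% of all genes were). The 3 Scramble libraries and the 3 libraries of Si-KDM4C#1 did not overlap for 29 genes that were higher (33.5% of all genes) and for 11 that were lower (36.0%). With Si-KDM4C#2 this held for 33 genes that were higher (37.3% of all genes) and for 2 that were lower (27.9%). Since the libraries come from bulk RNA, less RNA per cell and fewer cells holding it cannot be told apart.

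**Figure D1:**
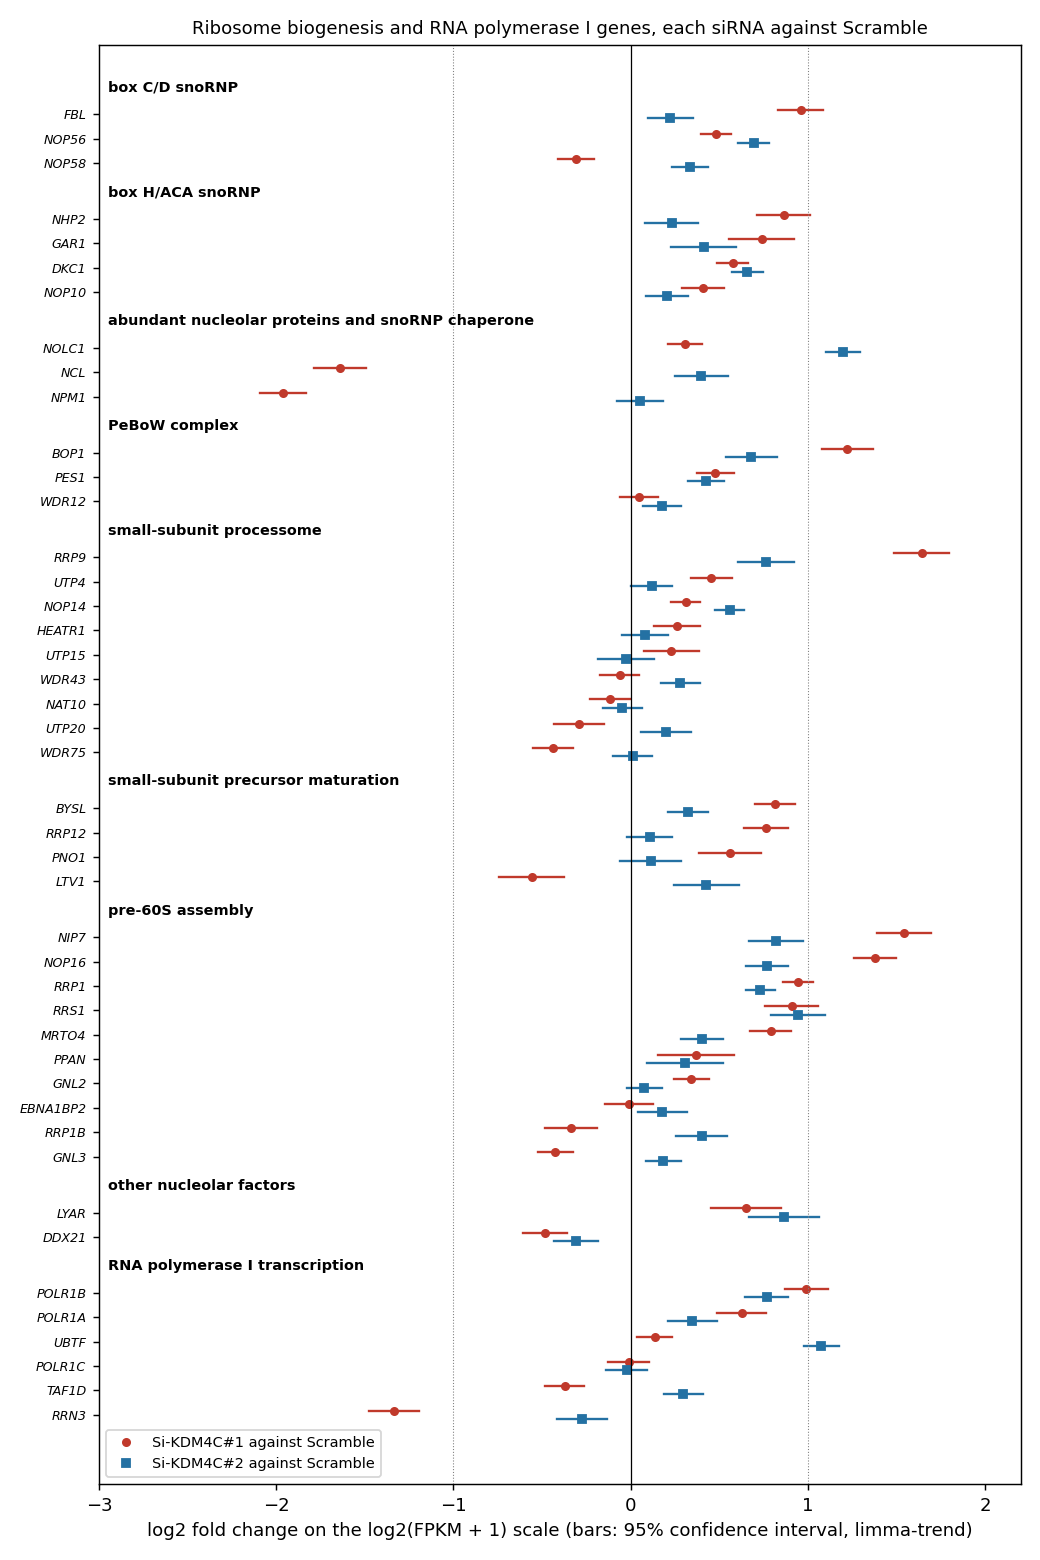
Log2 fold change on the log2(FPKM + 1) scale (x axis) of the 44 genes tested, grouped by role, for Si-KDM4C#1 (red circles) and Si-KDM4C#2 (blue squares) against the same 3 Scramble libraries; bars are 95% confidence intervals and the dotted lines mark a 2-fold change. The red circles of NPM1, NCL and RRN3 lie far to the left, at -1.96, -1.64 and -1.34, and most other points lie to the right of 0.

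Of the genes, 3 encode proteins of box C/D snoRNPs, particles that methylate ribosomal RNA at sites set by the guide RNA. FBL, the methyltransferase fibrillarin, averaged 67.2 ± 2.81 FPKM in the Scramble libraries, 132 ± 7.95 FPKM in those of Si-KDM4C#1 and 78.7 ± 4.37 FPKM in those of Si-KDM4C#2 (SD, n = 3 each). It rose with both, by 0.96 and 0.23 on the log2 scale, although the latter call was lost with quantile normalization (0.098, adjusted p = 0.172) and after an adjustment for GC content (0.053, adjusted p = 0.517). NOP56, a scaffold of the particle, rose by 0.48 and 0.69. NOP58, its partner, went in opposite directions, with a mean of 29.5 ± 1.71 FPKM in the Scramble libraries, 23.6 ± 0.529 FPKM with Si-KDM4C#1 (log2 fold change -0.31, adjusted p = 0.000212) and 37.5 ± 0.655 FPKM with Si-KDM4C#2 (0.34, adjusted p = 0.000149). The fall of NOP58 with Si-KDM4C#1 was not called after GC adjustment (-0.098, adjusted p = 0.077).

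The mRNAs of all 4 proteins of box H/ACA snoRNPs, which convert uridine to pseudouridine, rose with both siRNAs. Of all genes tested, 31.7% rose with Si-KDM4C#1 and 34.4% with Si-KDM4C#2. DKC1, the pseudouridine synthase dyskerin, rose by 0.58 with Si-KDM4C#1 and 0.66 with Si-KDM4C#2. GAR1 and NHP2, which bind the enzyme or the guide RNA, rose by 0.74 and 0.86 with Si-KDM4C#1 and by 0.41 and 0.23 with Si-KDM4C#2. NOP10, the smallest of these proteins and the most highly expressed of the 4 per exon length, averaged 109 ± 7.43 FPKM in the Scramble libraries, 145 ± 3.65 FPKM in those of Si-KDM4C#1 and 126 ± 5.34 FPKM in those of Si-KDM4C#2. The rise with Si-KDM4C#2 was not called with quantile normalization for NHP2 (0.099, adjusted p = 0.223) and NOP10 (0.065, adjusted p = 0.328), nor after GC adjustment for NHP2 (0.079, adjusted p = 0.276) or in limma voom for NOP10 (0.14, adjusted p = 0.0551).

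The abundant nucleolar proteins included the largest change of the 44 genes with Si-KDM4C#1, that of NPM1, and the largest with Si-KDM4C#2, that of NOLC1. NPM1, or nucleophosmin, a chaperone of ribosomal proteins and histones, was the highest of the 45 genes by FPKM with Scramble, and its gene (ENSG00000181163, plus strand of chromosome 5) spans 171387116 to 171411137 in GRCh38. NPM1 was at 381, 424 and 445 FPKM in the Scramble libraries, at 112, 103 and 104 FPKM with Si-KDM4C#1, and at 421, 433 and 440 FPKM with Si-KDM4C#2. All Si-KDM4C#1 libraries lay far below the others, and the Scramble and Si-KDM4C#2 libraries overlapped. NPM1 fell by 1.96 on the log2 scale with Si-KDM4C#1 (standard error 0.057, adjusted p = 1.07e-08). With Si-KDM4C#2 its log2 fold change was 0.053 (95% confidence interval -0.08 to 0.18, adjusted p = 0.448).

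NCL, or nucleolin, which binds the ribosomal RNA precursor, followed NPM1 with Si-KDM4C#1. Its gene (ENSG00000115053, minus strand of chromosome 2) spans 231453531 to 231483641. NCL was at 72.4, 78.0 and 78.2 FPKM with Scramble, at 26.7, 22.8 and 22.0 FPKM with Si-KDM4C#1, and at 102, 99.7 and 100.1 FPKM with Si-KDM4C#2. The 3 groups did not overlap, with the Si-KDM4C#1 libraries lowest and the Si-KDM4C#2 libraries highest. NCL fell with Si-KDM4C#1 (log2 fold change -1.64, adjusted p = 4.66e-08) and rose with Si-KDM4C#2 (0.40, adjusted p = 0.000591).

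NOLC1, which chaperones snoRNPs through the nucleolus and the Cajal bodies, was at 38.7, 39.3 and 39.3 FPKM with Scramble, at 52.1, 47.0 and 47.0 FPKM with Si-KDM4C#1, and at 91.8, 89.7 and 91.2 FPKM with Si-KDM4C#2. The groups did not overlap and the Si-KDM4C#2 libraries were the highest. NOLC1 rose by 0.31 with Si-KDM4C#1 (adjusted p = 0.000144) and by 1.20 with Si-KDM4C#2 (adjusted p = 5.45e-08), the largest rise of the 44 genes with that siRNA.

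**Figure D2:**
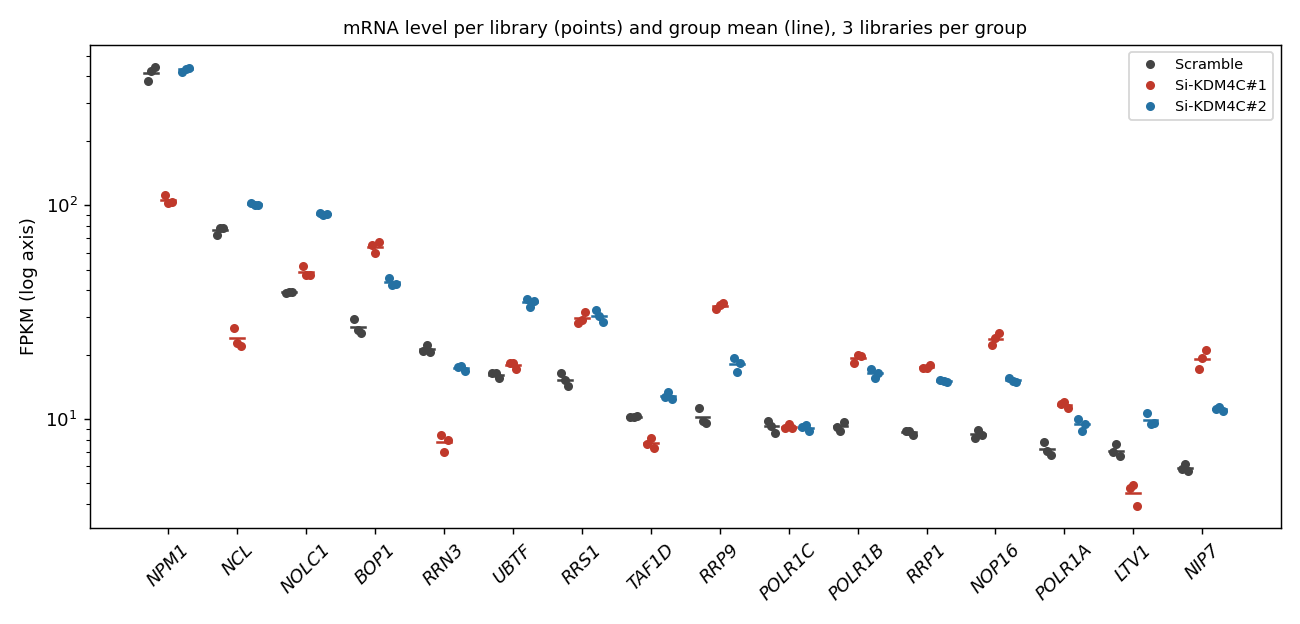
FPKM (y axis, log scale) of the 16 genes given library by library, ordered by their mean with Scramble; points are libraries, lines are group means, and there are 3 libraries per group. The red points of NPM1, NCL, RRN3, TAF1D and LTV1 lie below the black ones, and those of NIP7, RRP9 and NOP16 lie above both other groups.

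Of the PeBoW complex, whose 3 proteins process the large-subunit ribosomal RNA, BOP1 changed most. BOP1 was at 29.3, 26.0 and 25.2 FPKM with Scramble, at 64.8, 59.6 and 67.2 FPKM with Si-KDM4C#1, and at 45.5, 42.3 and 42.9 FPKM with Si-KDM4C#2. The 3 groups did not overlap, with Scramble lowest. It rose by 1.22 with Si-KDM4C#1 (adjusted p = 2.19e-07) and by 0.68 with Si-KDM4C#2 (adjusted p = 1.53e-05). PES1, which gives the complex its name together with BOP1 and WDR12, rose by 0.48 and 0.42. WDR12, the third subunit, rose with Si-KDM4C#2 (0.18, adjusted p = 0.0103), a call lost in limma voom (0.15, adjusted p = 0.0625). With Si-KDM4C#1 it gave 0.049 (adjusted p = 0.396), and was called higher with quantile normalization (0.13, adjusted p = 0.046) and after GC adjustment (0.29, adjusted p = 0.000421).

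The small-subunit processome, which assembles around the 5′ end of the precursor, held genes that rose and genes that fell. Of its 9 genes, 5 rose, 2 fell and 2 did not pass with Si-KDM4C#1, beside 31.7% and 33.9% of all genes tested. With Si-KDM4C#2, 4 rose (44.4%), 0 fell and 5 did not pass, beside 34.4% and 25.0% of all genes. RRP9, a protein of the U3 snoRNP (ENSG00000114767, minus strand of chromosome 3 from 51933430 to 51941941), was at 11.2, 9.80 and 9.54 FPKM with Scramble, at 32.7, 34.0 and 34.9 FPKM with Si-KDM4C#1, and at 19.4, 16.5 and 18.2 FPKM with Si-KDM4C#2. The groups did not overlap, and the Si-KDM4C#1 libraries were the highest. RRP9 rose by 1.64 with Si-KDM4C#1 (standard error 0.07, adjusted p = 6.73e-08), the largest rise of the 44 genes with that siRNA, and by 0.77 with Si-KDM4C#2 (adjusted p = 1.24e-05).

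The other processome genes moved by less than 0.6 on the log2 scale. NOP14 rose with both siRNAs (0.31 and 0.56). UTP4, UTP15, HEATR1, WDR43 and WDR75 belong to the part of the processome that binds the precursor early, and did not move together. With Si-KDM4C#1, UTP4, UTP15 and HEATR1 rose (0.46, 0.23 and 0.26), WDR75 fell (-0.44) and WDR43 did not pass (-0.062). The call of HEATR1 was lost with quantile normalization (0.14, adjusted p = 0.0606), and WDR43 was called lower with quantile normalization (-0.22, adjusted p = 0.00493) but higher after GC adjustment (0.15, adjusted p = 0.019). With Si-KDM4C#2, WDR43 rose (0.28), and UTP4, UTP15, HEATR1 and WDR75 did not pass (0.12, -0.027, 0.082 and 0.011). Of these, HEATR1 and WDR75 were called higher after GC adjustment (0.17 and 0.13, adjusted p = 0.0173 and 0.0308). UTP20 fell with Si-KDM4C#1 (-0.29), a call lost after GC adjustment (-0.073, adjusted p = 0.316), and rose with Si-KDM4C#2 (0.20). NAT10, which acetylates cytidines of the small-subunit ribosomal RNA, passed with neither siRNA (-0.12, adjusted p = 0.0613, and -0.046, adjusted p = 0.442). It was called lower with both under quantile normalization (-0.28 and -0.19) and under GC adjustment (-0.15 and -0.12).

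Among the factors that mature the precursor of the small subunit, BYSL rose with both siRNAs (0.81 and 0.32). RRP12, which takes part in nuclear export, and PNO1, which holds the end of the small-subunit precursor, rose with Si-KDM4C#1 (0.76 and 0.56) and had 0.11 and 0.11 with Si-KDM4C#2, where they did not pass (adjusted p = 0.124 and 0.232). LTV1, which leaves the particle late in the cytoplasm, was the exception. LTV1 was at 7.03, 7.63 and 6.70 FPKM with Scramble, at 4.77, 4.90 and 3.91 FPKM with Si-KDM4C#1, and at 10.7, 9.43 and 9.58 FPKM with Si-KDM4C#2. The Si-KDM4C#1 libraries were the lowest and the Si-KDM4C#2 libraries the highest, without overlap. It fell by 0.56 with Si-KDM4C#1 (adjusted p = 0.000203) and rose by 0.43 with Si-KDM4C#2 (adjusted p = 0.00146).

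The factors of pre-60S assembly formed the largest group, with 11 genes of which 10 were tested. With Si-KDM4C#1, 7 rose (70%, beside 31.7% of all genes tested), 2 fell (20%, beside 33.9%) and 1 did not pass. With Si-KDM4C#2, 9 rose (90%, beside 34.4% of all genes), 0 fell (beside 25.0%) and 1 did not pass. NIP7, which acts on the large-subunit precursor (ENSG00000132603, plus strand of chromosome 16 from 69337996 to 69343111), was at 5.85, 6.13 and 5.72 FPKM with Scramble, at 17.1, 19.3 and 21.0 FPKM with Si-KDM4C#1, and at 11.2, 11.4 and 10.96 FPKM with Si-KDM4C#2. NOP16, an assembly factor of the same particle (ENSG00000048162, minus strand of chromosome 5 from 176383938 to 176388975), was at 8.17, 8.90 and 8.44 FPKM with Scramble, at 22.2, 23.8 and 25.3 FPKM with Si-KDM4C#1, and at 15.6, 15.1 and 14.8 FPKM with Si-KDM4C#2. Both genes were lowest with Scramble and highest with Si-KDM4C#1, and the groups did not overlap. NIP7 rose by 1.54 and 0.82 (adjusted p = 7.11e-08 and 5.79e-06) and NOP16 by 1.38 and 0.77 (adjusted p = 3.62e-08 and 2.07e-06).

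RRS1, which helps to bring the ribosomal proteins L5 and L11 with their RNA into the particle, rose by about the same amount with both siRNAs. RRS1 was at 16.4, 15.3 and 14.2 FPKM with Scramble, at 28.2, 28.95 and 31.5 FPKM with Si-KDM4C#1, and at 32.3, 30.4 and 28.3 FPKM with Si-KDM4C#2. The libraries of the siRNAs overlapped each other and lay above all Scramble libraries. The log2 fold changes of RRS1 were 0.91 and 0.94 (adjusted p = 1.79e-06 and 2.42e-06), and the difference between the siRNAs was 0.036 (95% confidence interval -0.11 to 0.19, adjusted p = 0.662).

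RRP1, another early factor of the large subunit, was at 8.77, 8.77 and 8.40 FPKM with Scramble, at 17.3, 17.4 and 17.96 FPKM with Si-KDM4C#1, and at 15.3, 15.0 and 14.8 FPKM with Si-KDM4C#2. It was higher in all knockdown libraries than in the Scramble libraries, and rose by 0.94 and 0.73 (adjusted p = 4.18e-08 and 3.37e-07). RRP1B, its paralog, fell with Si-KDM4C#1 (-0.34, adjusted p = 0.0012) and rose with Si-KDM4C#2 (0.40, adjusted p = 0.000493).

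Of the remaining pre-60S factors, MRTO4, a placeholder for a stalk protein, rose by 0.79 and 0.40, and PPAN by 0.37 and 0.31. The GTPase GNL2 rose with Si-KDM4C#1 (0.34) and was not called with Si-KDM4C#2 (0.077, adjusted p = 0.162, but 0.12 and adjusted p = 0.0391 after GC adjustment). The GTPase GNL3, or nucleostemin, fell with Si-KDM4C#1 (-0.42, adjusted p = 1.89e-05) and rose with Si-KDM4C#2 (0.19, adjusted p = 0.00502). EBNA1BP2 did not pass with Si-KDM4C#1 (-0.0084, adjusted p = 0.912), was called lower there with quantile normalization (-0.18, adjusted p = 0.0347), and rose with Si-KDM4C#2 (0.18, adjusted p = 0.0296). With quantile normalization the rises of GNL3 (0.056, adjusted p = 0.313) and EBNA1BP2 (0.042, adjusted p = 0.6) with Si-KDM4C#2 were not called, and after GC adjustment those of PPAN were not called with Si-KDM4C#1 (0.12, adjusted p = 0.305) or with Si-KDM4C#2 (-0.0057, adjusted p = 0.964). With Si-KDM4C#2 the rise of EBNA1BP2 was also lost without the filter, after GC adjustment and in limma voom (adjusted p = 0.0677, 0.0957 and 0.0986), and that of PPAN without the filter (adjusted p = 0.056).

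NOP2, a methyltransferase of the large-subunit ribosomal RNA, was the gene that was not tested. It was listed at 0.198, 0.228 and 0.237 FPKM with Scramble, at 0.130, 0.322 and 0.199 FPKM with Si-KDM4C#1, and at 0.262, 0.178 and 0.213 FPKM with Si-KDM4C#2, and the groups overlapped. Of its 4687 exon bases, 54.4% lie in exons of AC006064.6, an annotated gene on the same strand, and the part of this overlap in the low values was not tested.

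The remaining nucleolar factors differed from each other. LYAR, a nucleolar zinc finger protein, rose by 0.65 with Si-KDM4C#1 and by 0.87 with Si-KDM4C#2. DDX21, a nucleolar RNA helicase, averaged 58.7 ± 2.14 FPKM in the Scramble libraries, 41.8 ± 2.95 FPKM in those of Si-KDM4C#1 and 47.3 ± 1.73 FPKM in those of Si-KDM4C#2 (SD, n = 3 each). It was lower in all knockdown libraries, with log2 fold changes of -0.48 (adjusted p = 3.45e-05) and -0.31 (adjusted p = 0.000946). DDX21 and RRN3 were the genes called lower with Si-KDM4C#2.

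The genes for RNA polymerase I transcription comprised 3 subunits and 3 factors that work at the promoter. POLR1A, the largest catalytic subunit, was at 7.78, 7.08 and 6.80 FPKM with Scramble, at 11.8, 12.03 and 11.2 FPKM with Si-KDM4C#1, and at 10.1, 8.81 and 9.49 FPKM with Si-KDM4C#2. POLR1B, the other catalytic subunit (ENSG00000125630, plus strand of chromosome 2 from 112541915 to 112577150), was at 9.22, 8.79 and 9.68 FPKM with Scramble, at 18.3, 20.0 and 19.8 FPKM with Si-KDM4C#1, and at 17.2, 15.6 and 16.5 FPKM with Si-KDM4C#2. For both subunits all knockdown libraries lay above all Scramble libraries. POLR1A rose by 0.63 and 0.35 (adjusted p = 1.26e-05 and 0.000902) and POLR1B by 0.99 and 0.77 (adjusted p = 2.68e-07 and 2.31e-06).

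POLR1C, a subunit that RNA polymerase I shares with RNA polymerase III, was at 9.83, 9.31 and 8.63 FPKM with Scramble, at 9.07, 9.43 and 9.03 FPKM with Si-KDM4C#1, and at 9.15, 9.33 and 8.79 FPKM with Si-KDM4C#2. The groups overlapped. The log2 fold change of POLR1C was -0.01 with Si-KDM4C#1 (95% confidence interval -0.13 to 0.11) and -0.023 with Si-KDM4C#2 (-0.14 to 0.09), and neither passed (adjusted p = 0.871 and 0.722).

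UBTF, the upstream binding factor that opens the ribosomal DNA (ENSG00000108312, minus strand of chromosome 17 from 44205033 to 44221626), was at 16.4, 16.4 and 15.6 FPKM with Scramble, at 18.2, 18.2 and 17.1 FPKM with Si-KDM4C#1, and at 36.4, 33.5 and 35.5 FPKM with Si-KDM4C#2. The Si-KDM4C#2 libraries were far above the others. UBTF rose by 1.08 with Si-KDM4C#2 (standard error 0.044, adjusted p = 1.02e-07). Its rise with Si-KDM4C#1 was 0.14 (adjusted p = 0.0206), and this call was lost with quantile normalization (0.0098, adjusted p = 0.855), after GC adjustment (0.0073, adjusted p = 0.882), and without Scramble replicate 3, Si-KDM4C#1 replicate 1 or Si-KDM4C#1 replicate 2 (0.11, 0.12 and 0.12).

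RRN3, the initiation factor TIF-IA that makes the polymerase competent to start (ENSG00000085721, minus strand of chromosome 16 from 15060022 to 15094317), fell with both siRNAs. RRN3 was at 20.7, 22.3 and 20.5 FPKM with Scramble, at 8.38, 7.02 and 8.01 FPKM with Si-KDM4C#1, and at 17.6, 17.7 and 16.7 FPKM with Si-KDM4C#2. The groups did not overlap, with Scramble highest and Si-KDM4C#1 lowest. The log2 fold change of RRN3 was -1.34 with Si-KDM4C#1 (adjusted p = 1.04e-07) and -0.27 with Si-KDM4C#2 (adjusted p = 0.00387).

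TAF1D, a subunit of the promoter selectivity factor, was at 10.2, 10.2 and 10.4 FPKM with Scramble, at 7.64, 8.17 and 7.32 FPKM with Si-KDM4C#1, and at 12.7, 13.4 and 12.5 FPKM with Si-KDM4C#2. The Si-KDM4C#1 libraries were lowest and the Si-KDM4C#2 libraries highest, without overlap. TAF1D fell by 0.37 with Si-KDM4C#1 (adjusted p = 8.88e-05) and rose by 0.30 with Si-KDM4C#2 (adjusted p = 0.000507). The fall was not called after GC adjustment (-0.067, adjusted p = 0.189).

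The siRNAs were also compared directly, since they left different amounts of KDM4C mRNA. Of the 44 genes, 18 were higher with Si-KDM4C#2 than with Si-KDM4C#1 (40.9%, beside 35.9% of all genes tested), 19 were lower (43.2%, beside 26.5%) and 7 did not pass. The libraries of the siRNAs did not overlap for 19 genes higher (40.0% of all genes) and 19 lower (29.3% of all genes) with Si-KDM4C#2. The genes higher with Si-KDM4C#2 by more than 2-fold on the log2(FPKM + 1) scale were NCL (2.04), NPM1 (2.01) and RRN3 (1.06). On this scale 0 were lower by that much (4.41% of all genes were higher and 2.49% lower). Differences of LTV1 (0.98), UBTF (0.94) and NOLC1 (0.89) followed. On the other side were those of RRP9 (-0.88), FBL (-0.73) and NIP7 (-0.72), and all of these had an adjusted p of at most 1.06e-05. For LTV1 the ratio of mean FPKM between the siRNAs was 2.19. The amount of remaining KDM4C and the sequence of the siRNA cannot be told apart in this design.

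With both siRNAs together against Scramble, 29 genes were higher (65.9%, beside 32.6% of all genes), 6 were lower (13.6%, beside 30.8%) and 9 did not pass. The 6 lower genes were NPM1 (-0.95), RRN3 (-0.80), NCL (-0.62), DDX21 (-0.40), WDR75 (-0.21) and GNL3 (-0.12). Of these, NCL and GNL3 rose with Si-KDM4C#2, and NPM1 and WDR75 did not pass with it. A pooled call can thus come from a single siRNA. The pooled falls of WDR75 and GNL3 were not called after GC adjustment (-0.014 and -0.0055, adjusted p = 0.762 and 0.913). That of GNL3 was also lost without Scramble replicate 2 or 3 (-0.11 and -0.087). RRP9 (1.20), NIP7 (1.18) and NOP16 (1.07) exceeded 2-fold (2.18% of all genes did), and 0 genes were lower by that much (1.96% of all genes were). All 6 knockdown libraries lay above all 3 Scramble libraries for 24 of the 44 genes (20.7% of all genes) and below them for 2 (17.5% of all genes), which were RRN3 and DDX21.

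The 45 genes together summed to 1392 ± 31.0 FPKM in the Scramble libraries, 1352 ± 26.1 FPKM in those of Si-KDM4C#1 and 1706 ± 20.8 FPKM in those of Si-KDM4C#2 (SD, n = 3 each). NPM1 and NCL carried 35.4% of this sum in the Scramble group, 9.60% in the Si-KDM4C#1 group and 31.2% in the Si-KDM4C#2 group. The other 43 genes summed to 899 ± 18.1, 1223 ± 26.3 and 1174 ± 22.6 FPKM. The sum over the other 43 was higher with both siRNAs, without overlap between the knockdown and Scramble libraries. The FPKM sums of all 45 genes overlapped between Scramble and Si-KDM4C#1, but the share of recovered fragments from these genes, which is not divided by length, did not. It was 0.526% to 0.549% in the Scramble libraries, 0.461% to 0.472% in those of Si-KDM4C#1 and 0.657% to 0.669% in those of Si-KDM4C#2, lower than Scramble with the one siRNA and higher with the other.

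**Figure D3:**
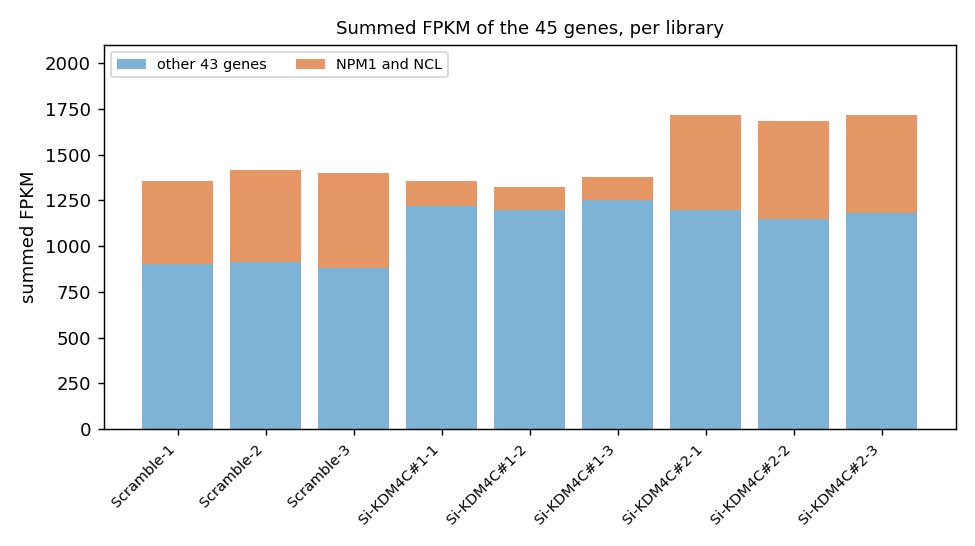
Summed FPKM of the 45 genes in each of the 9 libraries (bars start at 0), split into NPM1 with NCL (orange) and the other 43 genes (blue). The orange part shrinks to 9.60% of the sum with Si-KDM4C#1, and the blue part is taller in all 6 knockdown libraries than in the 3 Scramble libraries.

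A further 131 genes for ribosome biogenesis, of which 129 were tested, gave the background of the pathway. With Si-KDM4C#1, 63 of them rose (48.8%, beside 31.7% of all genes tested) and 39 fell (30.2%, beside 33.9%), with a median log2 fold change of 0.17. With Si-KDM4C#2, 72 rose (55.8%, beside 34.4%) and 15 fell (11.6%, beside 25.0%), with a median of 0.18, and with quantile normalization this split was 56 and 21. The split between the siRNAs was 48 higher and 53 lower with Si-KDM4C#2 (37.2% and 41.1%, beside 35.9% and 26.5% of all genes), and 34 and 64 in limma voom on recovered fragments. Of the 10 other genes of RNA polymerase I transcription, 6 rose and 3 fell with Si-KDM4C#1, and 5 rose and 0 fell with Si-KDM4C#2.

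Past an FDR under 0.05 and a fold change over 2 with either siRNA, the largest changes were those of DHX37, a helicase of the small-subunit processome, and TCOF1, or treacle, a nucleolar partner of UBTF. DHX37 was at 3.37 ± 0.238 FPKM with Scramble and rose by 1.68 and 1.50. TCOF1 was at 5.55 ± 0.457 FPKM with Scramble and rose by 1.08 and 1.59. PELP1, which takes part in pre-60S release, fell by 1.45 with Si-KDM4C#1 and rose by 0.44 with Si-KDM4C#2. IMP4, a partner of the U3 snoRNA, rose by 1.43 and 0.30, and NOL6, of the processome, by 1.12 and 0.37. WDR74, of the pre-60S particle, rose by 1.12 and 0.84, and POP7, of RNase MRP, by 1.16 and 0.70. EXOSC5, a subunit of the exosome, rose by 1.17 with Si-KDM4C#1 and fell by 0.56 with Si-KDM4C#2.

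Of 79 cytosolic ribosomal protein genes, 50 rose (63.3%, beside 31.7% of all genes) and 11 fell (13.9%, beside 33.9%) with Si-KDM4C#1, with a median of 0.19. With Si-KDM4C#2, 25 rose (31.6%, beside 34.4% of all genes) and 29 fell (36.7%, beside 25.0%), with a median of -0.036. The share that rose with Si-KDM4C#2 was thus close to that of all genes. Genes for RNA polymerase III, which makes the small ribosomal RNA and tRNAs, lay close to all genes with both siRNAs. Of 20, 7 rose (35%) and 8 fell (40%) with Si-KDM4C#1, whereas Si-KDM4C#2 gave 7 higher (35%) and 5 lower (25%).

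The GC content of the transcripts moved with the fold changes. Across the 44 genes, GC content and log2 fold change had a Pearson's r of 0.572 for Si-KDM4C#1 and 0.42 for Si-KDM4C#2, and across 14343 genes r was 0.327 and 0.31. These correlations are across genes, which share the same libraries and are not independent replicates. Of the 22 genes at or above the median GC content of 48.1%, 18 rose and 1 fell with Si-KDM4C#1 (median log2 fold change 0.60), and 19 rose and 0 fell with Si-KDM4C#2 (0.41). Of the 22 genes under it, 10 rose and 10 fell with Si-KDM4C#1 (median -0.0065), and 13 rose and 2 fell with Si-KDM4C#2 (0.19). After an adjustment of each library for GC content, Si-KDM4C#1 gave 28 higher and 9 lower genes, and Si-KDM4C#2 gave 31 and 3. Before adjustment, 31.7% of all genes tested rose and 33.9% fell with Si-KDM4C#1 (34.4% and 25.0% for Si-KDM4C#2). These shares cover every GC content, and those for all genes of like GC content or after the adjustment are not given here.

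**Figure D4:**
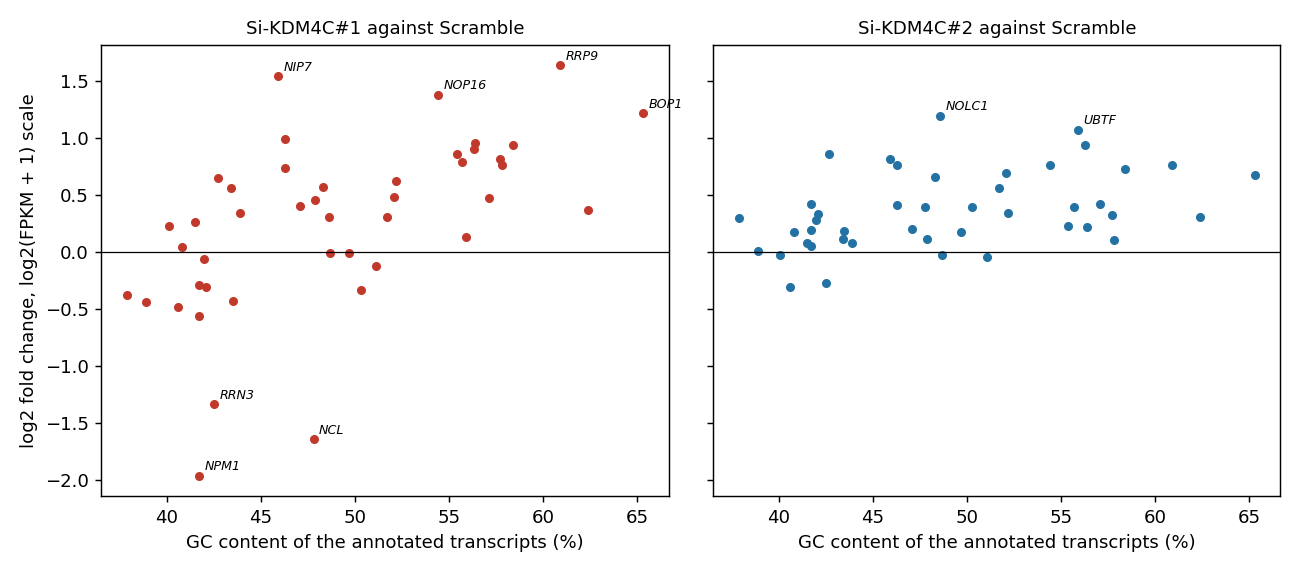
GC content of the annotated transcripts in percent (x axis) and log2 fold change on the log2(FPKM + 1) scale (y axis) for the 44 genes tested, with Si-KDM4C#1 (left) and Si-KDM4C#2 (right); each point is a gene and those beyond a 2-fold change are named. With Si-KDM4C#1, 18 of the 22 genes with the higher GC content rose, and NPM1, NCL and RRN3 lie below 48.1% GC.

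Several of these genes host snoRNA genes in their introns, so that guide RNAs are released when their transcripts are spliced. Annotated snoRNA genes lie within 8 of the genes tested, among them TAF1D with 8, NOP56 and GNL3 with 5 each, NOP58 with 4, and NCL and WDR43 with 3 each. Of the 8 hosts, 3 rose and 4 fell with Si-KDM4C#1 (median -0.18), and 8 rose and 0 fell with Si-KDM4C#2 (median 0.32). Of the 36 genes without a snoRNA gene, 25 rose and 7 fell with Si-KDM4C#1 (median 0.43), and 24 rose and 2 fell with Si-KDM4C#2 (median 0.28). Over all genes tested, 31.7% rose and 33.9% fell with Si-KDM4C#1 (34.4% and 25.0% for Si-KDM4C#2), so that the 3 of 8 hosts that rose with Si-KDM4C#1 were near the share of all genes. Si-KDM4C#2 set against Si-KDM4C#1 gave 6 higher and 0 lower hosts, and 12 higher and 19 lower genes without a snoRNA. In that comparison 35.9% of all genes tested were higher and 26.5% lower, and whether hosts differ from the other genes was not tested. The snoRNAs themselves were not analysed here.

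Some values share reads with other genes or could do so, as the sources used here do not state that counting used strand. NPM1 has 16 listed pseudogenes, whose summed levels averaged 46.0, 14.4 and 49.1 FPKM in the Scramble, Si-KDM4C#1 and Si-KDM4C#2 libraries. RRN3 has 3 listed pseudogenes, with 1.74, 1.04 and 1.14 FPKM in sum. Exons of other genes cover 59.8% of the exon bases of PPAN (the read-through gene PPAN-P2RY11 and P2RY11), 34.8% of LTV1, 27.4% of NHP2, from 17.1% to 23.2% of HEATR1, EBNA1BP2, NIP7, NOP16, POLR1C, TAF1D and NOP14, 11.4% of RRS1 and 10.4% of PNO1. The levels of these genes are uncertain, and how many of their reads come from the shared bases was not tested.

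Promoters were searched for 4 motifs on both strands, from 250 bases before to 50 bases after the start site given by RefSeq on GRCh38.p14, which had an entry for 39 of the 45 genes. The E-box CACGTG was in 16 of the 39 (41.0%), in 10.7% of the promoters of genes tested and in 7.43% of all 27305 promoters. The ETS-type motif CCGGAAG was in 33.3% of the 39, 20.0% of genes tested and 10.7% of all promoters. The palindromic CGCG element was in 1 of the 39, 0.959% of genes tested and 0.469% of all promoters, and the NRF1 palindrome was in 1 of the 39, 2.46% of genes tested and 1.36% of all promoters. No motif contains another, only the first entry per gene was used, and a match describes the letters in the window, not a bound site.

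Stretches of 30 bases around the E-box are shown for genes that moved differently, with CACGTG in capitals, 5′ to 3′ on the strand of the gene. RRP9 rose with both siRNAs, NOP10 rose with both by less, UTP4 rose with Si-KDM4C#1, UTP20 fell with Si-KDM4C#1 and rose with Si-KDM4C#2, and NAT10 passed with neither. The stretches lie at chr3:51941904-51941933 (minus strand, RRP9), chr15:34343136-34343165 (minus strand, NOP10), chr16:69132620-69132649 (plus strand, UTP4), chr12:101280076-101280105 (plus strand, UTP20) and chr11:34105600-34105629 (plus strand, NAT10). Each ends at or before the start base given by RefSeq, which can differ from the start of the annotated gene span. The stretches of RRP9, NOP10 and UTP4 lie inside the annotated spans of these genes. That of NAT10 lies mostly inside, and that of UTP20 lies before its span.
RRP9: ggggagctgggagggttcagctgcCACGTG
NOP10: aggaaggaaattgacgaaCACGTGacgcgg
UTP4: gagagcgcgcgcgCACGTGgggccggggcg
UTP20: cgccgttcttttttccgtcCACGTGaccca
NAT10: ttaatgcgcttgcgCACGTGctgtctacca

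In these stretches the same 6 letters stand at or before the RefSeq start base of genes with different changes. In other genes, such as FBL and PES1, the match lay after the start base. Of the 15 tested genes with an E-box, 10 rose and 2 fell with Si-KDM4C#1 (median 0.41), and 11 rose and 0 fell with Si-KDM4C#2 (median 0.23). Of the 23 tested genes with a promoter entry and without an E-box, 14 rose and 7 fell with Si-KDM4C#1 (median 0.26), and 16 rose and 2 fell with Si-KDM4C#2 (median 0.31). Of all genes tested, 31.7% rose and 33.9% fell with Si-KDM4C#1 (34.4% and 25.0% for Si-KDM4C#2), and whether genes with and without an E-box differ was not tested. NPM1, NCL and RRN3, which had the largest falls with Si-KDM4C#1, were among the 23 genes without CACGTG in this window. Sequence outside the window was not searched.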

How the data were processed

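RNA sequencing of cells labelled Huh7 gave 9 libraries, 3 per group, grouped by the labels. The authors extracted total RNA with TRIzol, prepared libraries with the NEB Next Ultra RNA kit and sequenced paired ends on an Illumina NovaSeq. The deposited values are FPKM, 1 list per library. The submitters' processing notes name FastQC 0.11.5, HISAT2 2.1.0, StringTie 1.3.3b, featureCounts, DESeq 1.28.0 and GRCh38, without the role of each. Normalization between libraries and the use of strand are not given in the sources used here.

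Multiplied by GENCODE release 29 exon lengths, 97.54% to 97.68% of the non-zero values per library were whole fragments (within 0.05), which gave the depth. NIP7 was the gene of the 45 without recovered fragments. Replicate pairs differed beyond sampling noise (2.56 to 5.75 chi-square per degree of freedom), and all were counted. The main test was limma-trend (limma 3.58.1, R 4.3.3) on log2(FPKM + 1), for genes averaging 1 FPKM or more in 1 or more groups. It was fitted to all 9 libraries at once without covariates, and adjusted p-values are Benjamini-Hochberg values over all genes tested. Calls needed an FDR under 0.05, or in addition a fold change over 2. The pseudocount understates the change of low genes. GC content is that of the annotated transcripts. Other steps used Python 3.11.15 (numpy 2.4.6, pandas 2.3.3, matplotlib 3.10.9). Data were also simulated with the same design (13746 genes, Si-KDM4C#1 against Scramble), an assumed spread and most genes unchanged. In them, 144 of 200 genes changed 1.5-fold and 199 of 200 changed 4-fold were called, with 18 false calls. Unlike the data, the simulation had no shift with GC content and few changed genes, so false calls in the data stay unknown.

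The genes, gene lists and tests were chosen with earlier results of these data known. Library values are given for genes past both limits in any comparison, the 6 with the largest smaller change of both siRNAs, the 4 that differed most between the siRNAs, the RNA polymerase I genes and the highest gene. Of the other ribosome biogenesis genes, at most 8 past both limits with either siRNA are named. Alternatives were a pseudocount of 0.1, quantile normalization, no filter, at least 1 FPKM in every library, only the libraries compared, the replicate block, a lowess adjustment for GC content (span 0.3) without and with the block, limma voom on recovered fragments (at least 10 in 3 libraries), and leaving out each library.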

Additional observations from a re-analysis of the deposited data

How the results depend on the processing

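The counts of genes called higher or lower at an FDR under 0.05 kept within 1.5 times of those reported under every alternative run. Counts over 2-fold moved more. The shares of all genes over 2-fold under the alternatives are not given here, so these counts stand without a background. With limma voom, 7 of the 44 genes with recovered fragments were higher by more than 2-fold with Si-KDM4C#1, in place of 4 (NIP7 was not in that fit). In the same fit 1 in place of 0 was lower by that much with Si-KDM4C#2 than with Si-KDM4C#1. With Si-KDM4C#2, 1 in place of 2 was higher by more than 2-fold (NOLC1) with quantile normalization and with GC adjustment without or with the replicate block. With both siRNAs together, GC adjustment without or with the block left 1 of 3 (NIP7), and quantile normalization or leaving out Scramble replicate 1 put 1 in place of 0 below (range 0 to 1 over the libraries left out). Of the other ribosome biogenesis genes, 10 were higher by more than 2-fold with Si-KDM4C#1, but 6 with quantile normalization and 4 with GC adjustment, and 3 were lower, but 6 with a pseudocount of 0.1, 5 with voom and 1 with GC adjustment. With voom, 1 in place of 0 was lower with Si-KDM4C#2 and 4 in place of 2 between the siRNAs, where 9 higher became 5 with GC adjustment. With both siRNAs together, a pseudocount of 0.1 gave 4 in place of 2 higher.

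The sign turned mostly where the log2 fold change was close to 0, and the cause was not tested. With GC adjustment, without or with the block, it became 0.15 for WDR43, 0.0022 for EBNA1BP2 and 0.029 for POLR1C with Si-KDM4C#1, 0.076 for UTP15, -0.0895 for RRP12 and -0.0057 for PPAN with Si-KDM4C#2, -0.016 for WDR12 between the siRNAs, and 0.10 for UTP20, 0.083 for LTV1 and 0.18 for TAF1D with both together. With voom it became 0.0024 for WDR43, 0.058 for EBNA1BP2 and 0.054 for POLR1C with Si-KDM4C#1, -0.0099 for NPM1 and -0.052 for WDR75 with Si-KDM4C#2, and -0.043 for DKC1, -0.055 for NAT10 and -0.091 for RRS1 between the siRNAs. With quantile normalization it became -0.013 for HEATR1, -0.069 for WDR75 and -0.0048 for GNL2 with Si-KDM4C#2, and -0.13 for NOP58, -0.034 for WDR43, -0.097 for RRP1B and -0.068 for EBNA1BP2 with both together.

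Leaving out each library in turn, the log2 fold change crossed 0 in these ranges. It was -0.048 to 0.059 for EBNA1BP2 and -0.055 to 0.0296 for POLR1C with Si-KDM4C#1. It was -0.0101 to 0.10 for NPM1, -0.062 to 0.0066 for UTP15, -0.018 to 0.043 for WDR75 and -0.068 to 0.017 for POLR1C with Si-KDM4C#2. It was -0.0094 to 0.083 for RRS1, -0.12 to 0.0053 for PPAN and -0.0298 to 0.0093 for POLR1C between the siRNAs. It was -0.032 to 0.042 for NOP58, -0.044 to 0.074 for RRP1B and -0.061 to 0.023 for POLR1C with both together.

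Without Scramble replicate 3 or Si-KDM4C#1 replicate 3, the rise of UTP15 with Si-KDM4C#1 was not called (0.20 and 0.16). Without Scramble replicate 3 or Si-KDM4C#2 replicate 1, that of UTP20 with Si-KDM4C#2 was not called (0.16 and 0.18), nor that of PPAN without Scramble replicate 2 or Si-KDM4C#2 replicate 3 (0.21 and 0.29). That of EBNA1BP2 was lost without Scramble replicate 1 or 2 or Si-KDM4C#2 replicate 1 or 3 (0.14, 0.19, 0.15 and 0.19). The replicate numbers did not pair the libraries (mean correlation of deviations 0.016 over 9 same-numbered pairs, -0.0081 over 18 others), and the replicate block gave 28 and 32 higher calls for Si-KDM4C#1 and Si-KDM4C#2, as many as without it.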
